A study of Saccharomyces cerevisiae with 50 samples.

Results

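The comparison described here was the effect of deleting RPL7A on mRNA levels in budding yeast (Saccharomyces cerevisiae), with the 3 Δrpl7a libraries set against the 3 wild-type libraries of the same count table. These are 6 of the 50 samples of the series, and they were chosen by their labels alone. Of 5743 gene identifiers in that table, 5490 passed the filter on low counts and were tested. The Δrpl7a strain carried rpl7a::kanMX4, the RPL7A reading frame replaced by a drug-resistance cassette. The wild type was BY4741, the parent of the haploid deletion collection from which the strains were obtained. Both strains were MATa and both carried his3Δ1, leu2Δ0, met15Δ0 and ura3Δ0. Cells were grown in rich glucose medium (YPD) at 30 °C and collected in mid-log phase, with 3 biological replicates per strain. The labels describe each deletion strain as a single strain, so a second, independently made deletion of RPL7A was not analysed here. The study asked how the loss of single ribosomal protein genes changes gene expression in strains that differ in replicative lifespan, and it describes Δrpl7a as long-lived.

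Most yeast ribosomal proteins are encoded by a pair of near-identical genes, so that a cell without one copy still makes the protein from the other. RPL7A and RPL7B encode the large-subunit protein Rpl7, and in other work the loss of one copy of such a pair slows the assembly of large subunits. In glucose-grown yeast the ribosomal protein genes and the genes for ribosome assembly are transcribed together, and both are turned down when growth slows. The genes of the environmental stress response, many of them driven by the activators Msn2 and Msn4 through promoter elements with the core AGGGG, are turned up in those states. Gcn4 is the activator of amino acid biosynthesis genes and binds the sequence TGACTC. Its own level is set mainly by translation, through short reading frames upstream of its coding sequence.

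Promoter sequence is shown for 4 genes that stand for the main groups of the results, each the member of its group with the largest change among those that passed the test and held the group's motif in the stretch shown. Each stretch runs 5′ to 3′ from 250 to 101 bases before the start codon in RefSeq build R64, on the strand of the gene, with matches to the motif on either strand in capitals. The core AGGGG, read as CCCCT when it lies on the other strand, is marked in HSP12 (chrVI:107006-107155, plus strand) and PGM2 (chrXIII:477707-477856, minus strand). The Gcn4 site TGACTC is marked in ARG7 (chrXIII:396480-396629, minus strand). The PAC element GATGAG, which is found before ribosome biogenesis genes (CTCATC on the other strand), is marked in RIX7 (chrXII:73247-73396, minus strand).
HSP12: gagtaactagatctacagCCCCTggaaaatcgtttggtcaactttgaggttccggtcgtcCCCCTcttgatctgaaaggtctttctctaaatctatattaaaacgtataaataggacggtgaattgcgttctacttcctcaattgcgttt
PGM2: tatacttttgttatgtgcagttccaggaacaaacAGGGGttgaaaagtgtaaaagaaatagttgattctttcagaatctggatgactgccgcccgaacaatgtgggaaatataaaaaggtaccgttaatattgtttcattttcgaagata
ARG7: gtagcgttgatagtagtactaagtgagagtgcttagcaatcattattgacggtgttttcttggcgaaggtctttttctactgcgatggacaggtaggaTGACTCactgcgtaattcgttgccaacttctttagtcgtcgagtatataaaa
RIX7: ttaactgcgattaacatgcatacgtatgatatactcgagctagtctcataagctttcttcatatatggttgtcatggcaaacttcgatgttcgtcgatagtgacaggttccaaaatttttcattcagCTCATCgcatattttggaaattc

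The Δrpl7a libraries held 5943332, 5709195 and 7437643 counts, and the wild-type libraries 6280301, 5830742 and 7007887 counts. In every list of values below, the libraries of a strain stand in the order of their replicate numbers 1, 2 and 3. Replicate 3 stood apart from replicates 1 and 2 in both strains. The chi-square per gene between a pair of libraries was 81.3 and 66.4 for Δrpl7a replicate 3 against replicates 1 and 2, and 6.50 between replicates 1 and 2. In the wild type it was 27.6 and 23.9 for replicate 3, and 3.84 between replicates 1 and 2. Some results are also given without replicate 3 of every strain, an alternative chosen after seeing the data. Other named genes moved in that alternative too, so a gene given without this value was not always stable. Marker genes were read as a check of the labels. URA3 had 0 counts in all 6 libraries, MET17 (also known as MET15) had 0, 1 and 0 counts in Δrpl7a and 0, 0 and 0 in the wild type, and the 7 genes expressed only in MATa cells were all detected. Of the genes expressed only in MATα cells, MF(ALPHA)1 reached at most 0.171 CPM, which here are counts relative to TMM-scaled library size. STE3, the a-factor receptor of MATα cells, had 4.72, 4.61 and 6.74 CPM in Δrpl7a and 2.67, 3.59 and 3.56 CPM in the wild type. SAG1, the agglutinin gene of MATα cells, was also detected, at 12.4, 13 and 19.5 CPM in Δrpl7a and 14.6, 14.4 and 15.7 CPM in the wild type. The MATa gene ASG7 had 8.5, 7.58 and 9.46 CPM in Δrpl7a and 10.5, 10.1 and 6.84 CPM in the wild type. HIS3 was detected in both strains, at 84.5, 90 and 150 CPM in Δrpl7a and 53.8, 59.1 and 68.9 CPM in the wild type. The allele his3Δ1 removes only part of that gene.

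RPL7A itself (YGL076C), on chromosome VII (364335 to 365996, minus strand, 2 introns), was nearly absent from the deletion strain. It had 3.62, 4.28 and 3.78 CPM in Δrpl7a, against 2347, 2457 and 1843 CPM in the wild type, from 23, 26 and 32 counts and 14959, 14378 and 12941 counts. The groups lay far apart in every library, with a log2 fold change of -9.15 ± 0.21 (SE) and an edgeR adjusted p of 6.06e-15. The few counts left cannot be assigned with certainty, since the coding sequences of RPL7A and RPL7B are near-identical and the counts rest on reads that mapped to 1 place. The genes on both sides of RPL7A did not pass the test. HNM1, the choline transporter (362225 to 363916), had 94.6, 91.4 and 128 CPM in Δrpl7a and 133, 148 and 112 CPM in the wild type (adjusted p = 0.229, edgeR). MPS2, a spindle pole body component (366925 to 368088), had 13.8, 13.2 and 13.7 CPM in Δrpl7a and 14.9, 14.9 and 13.0 CPM in the wild type (adjusted p = 0.698, edgeR).

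The paralog RPL7B (YPL198W), on chromosome XVI, was the one ribosomal protein gene that was called higher. It had 517, 528 and 665 CPM in Δrpl7a, against 280, 283 and 254 CPM in the wild type. Every Δrpl7a library was above every wild-type library, and the log2 fold change was 1.07 ± 0.18 (SE, edgeR adjusted p = 0.000114). Its size was close to the limit of 2-fold used for a call. It came to 0.87 without replicate 3 of every strain (adjusted p = 6.17e-09), 0.92 without Δrpl7a replicate 3, and 0.99 when the scaling left out ribosomal protein and biogenesis genes, all under that limit. RPL7B was also 1.22 higher on the log2 scale than in the mean of the other 4 deletion strains (edgeR adjusted p = 1.19e-06), which lack RPL9A, RPL6A, RPL15B or RPS27B. Among those, Δrpl9a had the lowest RPL7B level, with 57.5, 60.6 and 102 CPM, and Δrps27b the highest, with 453, 534 and 458 CPM.

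**Figure D1:**
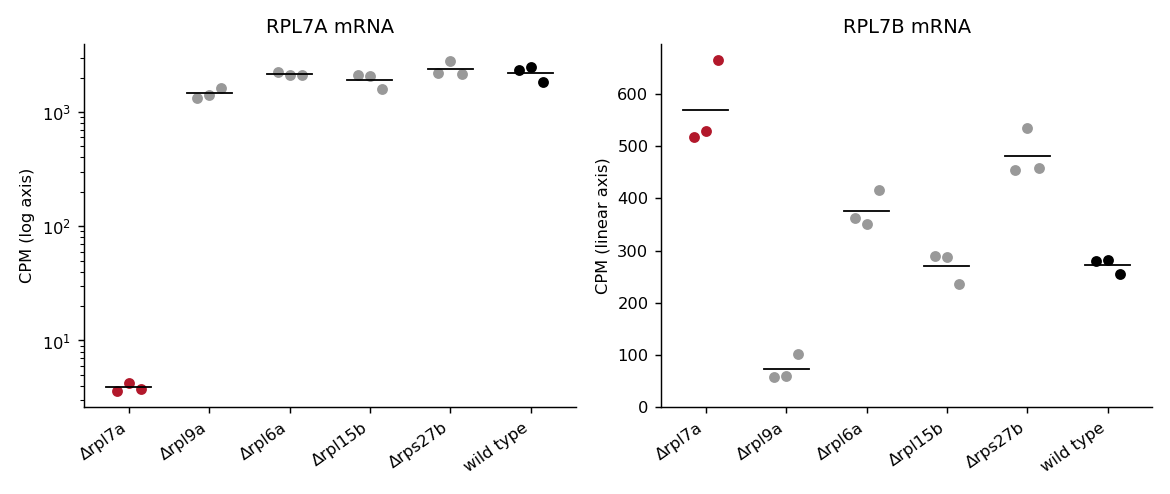
Level of RPL7A (left, log axis) and RPL7B (right, linear axis) in CPM, with 1 point per library and a line at the mean of each strain, Δrpl7a first and the wild type last. RPL7A is under 5 CPM in the 3 Δrpl7a libraries alone, and RPL7B is higher in the 3 Δrpl7a libraries (517 to 665 CPM) than in the 3 wild-type libraries (254 to 283 CPM).

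Across all genes tested, 1027 (18.7%) were called, which here means that a change exceeded 2-fold with an adjusted p under 0.01, the limits of the study's methods. Of these, 678 genes (12.3%) were higher and 349 (6.36%) lower in Δrpl7a. The strains did not overlap in 672 of the 678 genes called higher and in all 349 called lower. Lack of overlap in a called gene, where given below, therefore adds little to its call. The median log2 fold change of all 5490 genes was 0.0254. The balance of the calls depended on the scaling. With total counts in place of TMM, the median of all genes moved by 0.116, and 765 genes were called higher and 224 lower. Without replicate 3 of every strain, 730 were called higher and 530 lower, and of the called genes that the naming rule allows ARG56, BIO2 and RPL7B lost their call. These are bulk samples scaled to a common total, so a change in the amount of an mRNA per cell cannot be told apart from a change in the share of cells that hold it.

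**Figure D2:**
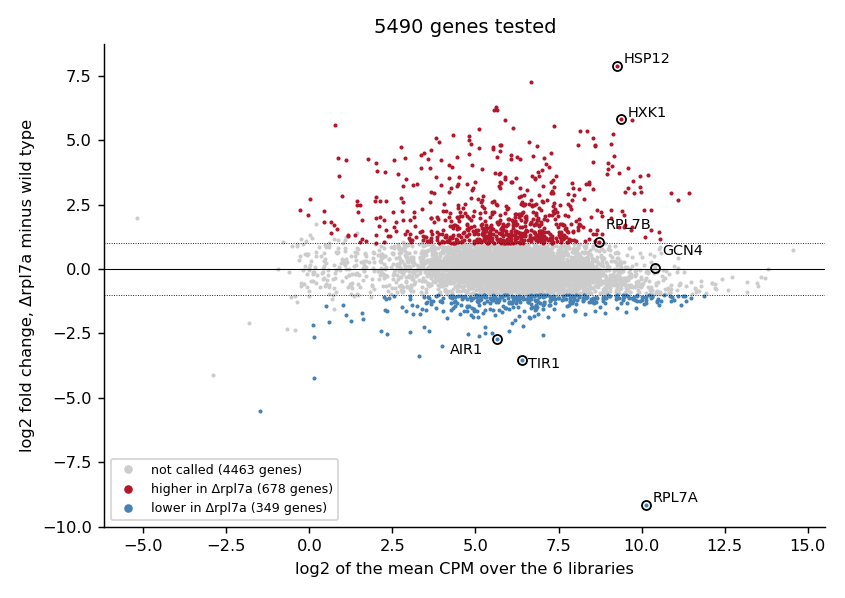
Log2 fold change (Δrpl7a over wild type) of each of the 5490 genes tested against its mean level in log2 CPM, with genes called higher (678) and called lower (349) in colour. RPL7A lies alone at -9.15, the largest rises reach 7.88 (HSP12), and the largest falls other than RPL7A among genes of moderate level reach -3.53 (TIR1).

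The largest rises were in genes of the stress response and of the reserve carbohydrates, and many of these genes were close to silent in the growing wild type. HSP12, which encodes a small membrane-stabilising stress protein, had 1830, 1318 and 501 CPM in Δrpl7a, against 4.08, 4.10 and 7.12 CPM in the wild type. The lowest Δrpl7a library was thus far above the highest wild-type library, and the log2 fold change was 7.88 ± 0.57 (SE, edgeR adjusted p = 6.13e-08), or 8.56 without replicate 3 of every strain. YNL194C, a membrane protein of the eisosome family, had 273, 242 and 93.0 CPM in Δrpl7a and 1.25, 1.71 and 0.997 CPM in the wild type (log2 fold change 7.26 ± 0.50). Its relative FMP45 had 188, 173 and 47.8 CPM in Δrpl7a and 2.20, 3.76 and 3.13 CPM in the wild type (5.49 ± 0.46). Both were low in all wild-type libraries and lowest, among the Δrpl7a libraries, in replicate 3.

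SPG4, a gene needed for survival in stationary phase, had 143, 105 and 45.3 CPM in Δrpl7a and 0.784, 1.02 and 1.85 CPM in the wild type (log2 fold change 6.28 ± 0.70). HXK1, one of the 2 yeast hexokinases and the one repressed by glucose, had 1620, 1661 and 684 CPM in Δrpl7a and 18.7, 24.9 and 26.8 CPM in the wild type (5.81 ± 0.55). DDR2, a multistress response gene, had 151, 132 and 68.6 CPM in Δrpl7a and 1.57, 2.22 and 2.56 CPM in the wild type (5.77 ± 0.55). In all of these the strains were widely separated, and replicate 3 was again the lowest Δrpl7a library. MPC3, the subunit of the mitochondrial pyruvate carrier used in respiratory growth, had 450, 362 and 163 CPM in Δrpl7a and 4.86, 6.49 and 9.40 CPM in the wild type (5.54 ± 0.45). TMA10, a ribosome-associated protein, had 2186, 2120 and 622 CPM in Δrpl7a and 26.7, 36.9 and 26.6 CPM in the wild type (5.77 ± 0.61). The rest of the 15 largest rises were PHM7, HXT7, CYC7, BDH2, GPH1, SPI1 and YMR206W, with log2 fold changes of 6.18 for PHM7 to 5.19 for YMR206W. In each of these 15 genes replicate 3 was the Δrpl7a library with the lowest level. Its place above every wild-type library was required by the rule that chose these genes.

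**Figure D3:**
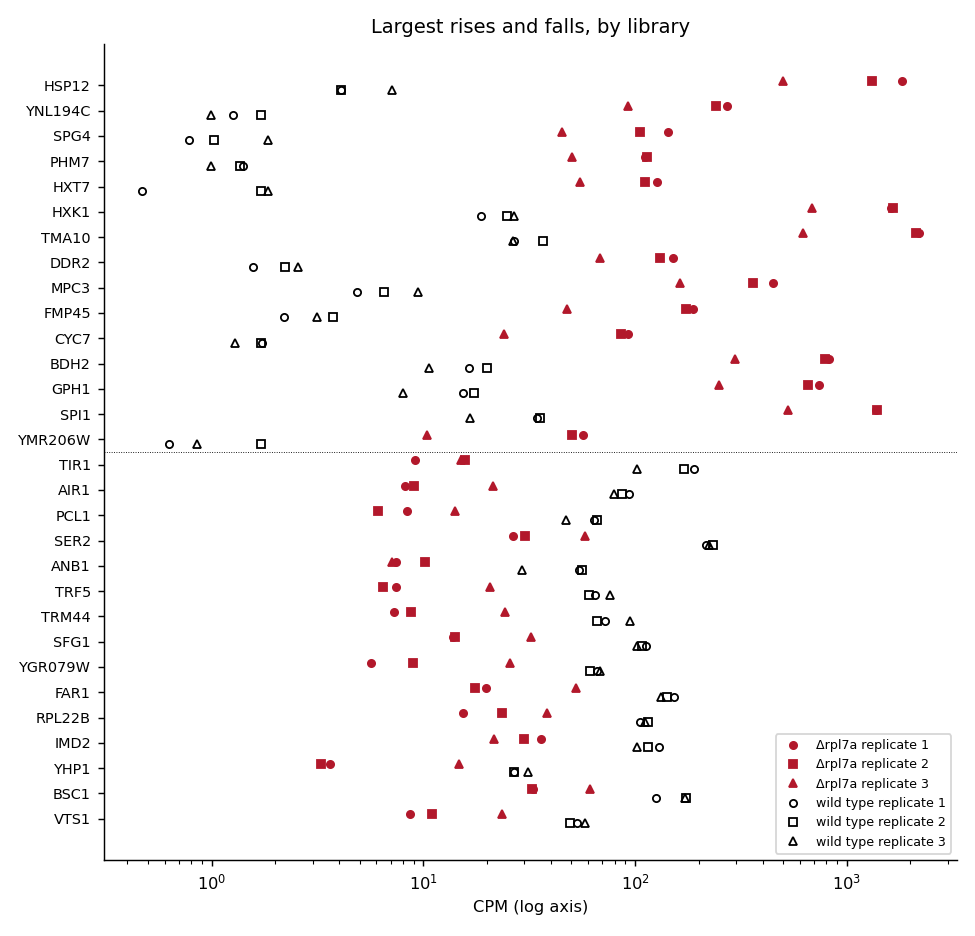
Level in CPM (log axis) in each of the 6 libraries, for the 15 largest rises (top) and the 15 largest falls (bottom), with filled points for Δrpl7a and open points for the wild type, and 1 shape per replicate. The rule that chose these genes required no overlap between the strains, and replicate 3 of Δrpl7a is the one nearest to the wild type in all 15 rises.

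The largest falls were in genes of several different functions. TIR1, a cell wall mannoprotein expressed in the cold and at low oxygen, had 9.13, 15.7 and 15 CPM in Δrpl7a, against 190, 171 and 102 CPM in the wild type. All 3 Δrpl7a libraries were below all wild-type libraries, which the rule that chose the 15 largest falls required. The log2 fold change was -3.53 ± 0.32 (SE, edgeR adjusted p = 4.03e-07). AIR1, the RNA-binding subunit of the TRAMP complex that marks nuclear RNA for decay, had 8.19, 9.06 and 21.4 CPM in Δrpl7a and 93.2, 86.6 and 79.8 CPM in the wild type (-2.71 ± 0.26). TRF5, a poly(A) polymerase of the same complex, had 7.40, 6.43 and 20.6 CPM in Δrpl7a and 64.3, 60.3 and 75.9 CPM in the wild type (-2.50 ± 0.30). MTR4, the helicase of TRAMP, was chosen for naming after its values were seen and had 143, 162 and 176 CPM in Δrpl7a and 369, 342 and 396 CPM in the wild type (-1.20 ± 0.14). In AIR1 and TRF5 replicate 3 was the Δrpl7a library nearest to the wild type, and without replicate 3 of every strain their log2 fold changes were -3.41 for AIR1 and -3.19 for TRF5.

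SER2, which catalyses the last step of serine synthesis, had 26.4, 30.1 and 57.7 CPM in Δrpl7a and 216, 234 and 224 CPM in the wild type (log2 fold change -2.55 ± 0.25). TRM44, a tRNA methyltransferase, had 7.24, 8.73 and 24.4 CPM in Δrpl7a and 72.0, 66.0 and 95.0 CPM in the wild type (-2.49 ± 0.39). ANB1, the form of translation factor eIF5A made at low oxygen, had 7.40, 10.2 and 7.10 CPM in Δrpl7a and 54.6, 55.9 and 29.2 CPM in the wild type (-2.50 ± 0.27). The strains did not overlap in any of the 3 genes, as the same rule required. PCL1, a cyclin of the Pho85 kinase active in G1, had 8.34, 6.10 and 14.1 CPM in Δrpl7a and 63.7, 66.0 and 47.3 CPM in the wild type (-2.60 ± 0.24). FAR1, an inhibitor of the G1 cyclin kinase, had 19.8, 17.5 and 52.8 CPM in Δrpl7a and 153, 142 and 133 CPM in the wild type (-2.23 ± 0.34). The others of the 15 largest falls were SFG1, YGR079W, RPL22B, IMD2, YHP1, BSC1 and VTS1, at -2.40 for SFG1 to -1.86 for VTS1. YHP1 lost its call without Δrpl7a replicate 1 (-1.62) and without replicate 2 (-1.61). Without replicate 3 of every strain the log2 fold changes were -3.02 for SER2, -3.14 for TRM44, -3.18 for PCL1 and -3.00 for FAR1.

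The gene groups below were lists assembled by function, and each is described by its counts and its median log2 fold change, beside 12.3% called higher, 6.36% called lower and a median of 0.0254 over all genes. Their members were chosen with earlier results of these data known, so these counts are a description and not an independent test. The list of other stress-induced genes, for instance, holds several of the largest rises above, among them YNL194C, PHM7 and HXK1. Some genes stand in more than 1 list, such as PGM2, HXK1 and CYC7, so the lists are not separate sets. RPL7A is left out of every list. The ribosomal protein genes were lower as a group. Of 80 large-subunit genes 27 were called lower and 1, RPL7B, higher, with a median of -0.905, or -0.58 once a trend of fold change with length and level was removed. Of 56 small-subunit genes 32 were called lower and none higher, with a median of -1.05, and all 56 had a fold change below 0 on the log2 scale. Without replicate 3 of every strain the number called lower was 47 in the large subunit, with none called higher, and 41 in the small subunit. Large-subunit genes took 7.54%, 7.40% and 9.45% of all counts in Δrpl7a, against 13.5%, 13.6% and 12.5% in the wild type. Small-subunit genes took 5.85%, 5.70% and 7.03% in Δrpl7a and 10.9%, 11.1% and 9.93% in the wild type. In both subunits the strains were separated, and replicate 3 was closest to the other strain in each of them.

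RPL22B, the minor copy of the gene for Rpl22, had 15.4, 23.4 and 38.2 CPM in Δrpl7a and 105, 114 and 112 CPM in the wild type (log2 fold change -2.09 ± 0.29). Its paralog RPL22A had 1052, 1043 and 1312 CPM in Δrpl7a and 2498, 2655 and 2840 CPM in the wild type (-1.23 ± 0.19). RPL8A had 299, 347 and 418 CPM in Δrpl7a and 1116, 1177 and 1066 CPM in the wild type (-1.66 ± 0.20, edgeR adjusted p = 4.72e-06). No library of one strain reached the range of the other in these 3 large-subunit genes. In the small subunit RPS6B had 180, 207 and 290 CPM in Δrpl7a and 672, 646 and 560 CPM in the wild type (-1.47 ± 0.19). RPS1B had 1150, 1154 and 1606 CPM in Δrpl7a and 3277, 3418 and 3474 CPM in the wild type (-1.38 ± 0.18). Reads shared between near-identical paralogs were not counted, so the split between the copies of a pair is less certain than the fall of both. Among ribosomal protein genes with an intron, 41 of 88 (46.6%) were called lower, against 18 of 48 (37.5%) without one. Among all other genes, 4.62% of the 173 with an intron and 5.43% of the 5179 without one were called lower, and 9.25% and 12.8% were called higher.

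The machinery that makes ribosomes was lower too, though with smaller changes. Of 151 ribosome biogenesis factors 37 were called lower and none higher, with a median log2 fold change of -0.589 (46 called lower without replicate 3 of every strain). UTP18, a part of the small-subunit processome, had 23.5, 26.4 and 76.3 CPM in Δrpl7a and 147, 139 and 174 CPM in the wild type (-1.85 ± 0.30). RIX7, the ATPase that releases a factor from pre-60S particles, had 35.4, 38.7 and 69.2 CPM in Δrpl7a and 166, 141 and 201 CPM in the wild type (-1.82 ± 0.22). REX4, a putative exonuclease of rRNA processing, had 31.5, 31.5 and 41.3 CPM in Δrpl7a and 139, 132 and 97.1 CPM in the wild type (-1.82 ± 0.22). The strains did not overlap in any of them. Of 15 genes for RNA polymerase I and its factors 6 were called lower and none higher (median -0.772). RPA12, a subunit of the enzyme, had 9.29, 11.7 and 18 CPM in Δrpl7a and 43.3, 45.5 and 47.9 CPM in the wild type (-1.79 ± 0.33).

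Among regulators of ribosomal protein gene transcription, 2 of 15 were called in each direction. The corepressor gene CRF1 rose, with 9.45, 8.24 and 8.87 CPM in Δrpl7a and 1.88, 2.73 and 3.85 CPM in the wild type (log2 fold change 1.63 ± 0.25). The coactivator gene IFH1 was called lower, with 114, 111 and 238 CPM in Δrpl7a and 295, 326 and 341 CPM in the wild type (-1.05 ± 0.23). IFH1 came to -0.92 with scaling by total counts and to -0.90 and -0.89 without Δrpl7a replicate 1 or 2, all under the limit. Without replicate 3 of every strain it was past the limit, at -1.49 (edgeR adjusted p = 6.59e-11). Among translation initiation factors 3 of 36 were called higher and 1 lower, and among elongation factors 1 of 20 was called higher and none lower, with medians of -0.236 and -0.572. Without replicate 3 of every strain 5 elongation factors were called lower. DBP1, a paralog of the initiation helicase gene DED1, rose, with 45.5, 37.4 and 18.9 CPM in Δrpl7a and 10.8, 10.4 and 11.8 CPM in the wild type (1.61 ± 0.31). Elongation factor genes took 1.47%, 1.5% and 1.82% of all counts in Δrpl7a, against 2.42%, 2.34% and 2.47% in the wild type. YEF3, elongation factor 3, illustrates the size, with 2166, 2439 and 3504 CPM in Δrpl7a and 4673, 4593 and 6025 CPM in the wild type (-0.92 ± 0.23). This was under the limit of 2-fold, and without replicate 3 of every strain it was past it, at -1.03. Of the 19 cytosolic aminoacyl-tRNA synthetases none was called in either direction, with a median of -0.467.

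**Figure D4:**
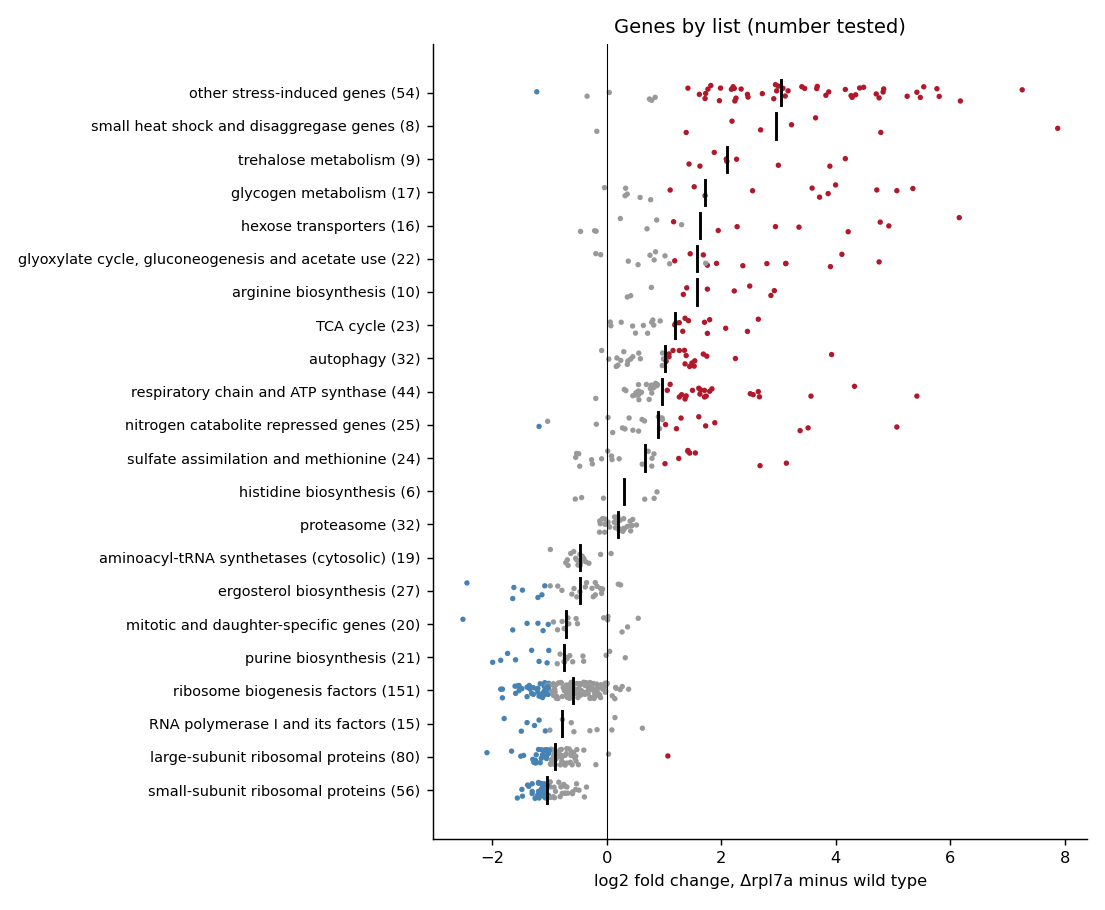
Log2 fold change (Δrpl7a over wild type) of the tested members of each gene list, for 22 of the lists, with 1 point per gene, red for called higher, blue for called lower, and a bar at the median of each list. Ribosomal proteins and biogenesis factors lie mostly below 0, and trehalose, glycogen and other stress-induced genes mostly above it, with medians of 2.10, 1.72 and 3.04 against 0.0254 for all genes.

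GCN4 mRNA did not differ detectably between the strains, while genes of arginine synthesis that Gcn4 is known to activate rose. GCN4 had 1167, 1391 and 1613 CPM in Δrpl7a and 1197, 1350 and 1466 CPM in the wild type. These ranges overlapped, and the log2 fold change was 0.06 ± 0.16 (SE, edgeR adjusted p = 0.785). PCL5, the cyclin that targets Gcn4 for degradation and is itself induced by Gcn4, had 315, 348 and 405 CPM in Δrpl7a and 132, 138 and 122 CPM in the wild type. It was higher in every Δrpl7a library (1.45 ± 0.13, edgeR adjusted p = 3.7e-07), and was the one gene called among the 16 of the list on GCN4 and its turnover.

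Of 10 arginine biosynthesis genes 7 were called higher and none lower, with a median log2 fold change of 1.58. ARG1, argininosuccinate synthetase, had 194, 206 and 416 CPM in Δrpl7a and 28.6, 33.7 and 44.6 CPM in the wild type (2.93 ± 0.33, edgeR adjusted p = 2.37e-06). It was higher in every Δrpl7a library, and replicate 3 was the highest of them. ARG7, an acetyltransferase of ornithine synthesis, had 310, 320 and 487 CPM in Δrpl7a and 65.0, 60.0 and 71.9 CPM in the wild type (2.5 ± 0.20). ARG4, argininosuccinate lyase, had 167, 184 and 512 CPM in Δrpl7a and 85.4, 84.6 and 85.6 CPM in the wild type (1.76 ± 0.32). For ARG4 the size rested largely on replicate 3, and it was 1.02 without replicate 3 of every strain. The double-function gene ARG56 was called at 1.34 but came to 0.59 without Δrpl7a replicate 3. Together the arginine genes took 0.153%, 0.156% and 0.280% of all counts in Δrpl7a and 0.0409%, 0.0421% and 0.0510% in the wild type. Replicate 3 of Δrpl7a was thus the highest for arginine genes, and the lowest for the stress genes above.

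Other amino acid pathways changed in fewer of their genes. None of 6 histidine genes was called, and HIS4 had 371, 434 and 615 CPM in Δrpl7a and 249, 228 and 321 CPM in the wild type (log2 fold change 0.83 ± 0.18). One of 9 lysine genes was called, LYS1, the last enzyme of the pathway, with 119, 132 and 194 CPM in Δrpl7a and 37.2, 36.4 and 39.0 CPM in the wild type (1.98 ± 0.20). Of 10 branched-chain genes 1 was called higher and 1 lower. The one that rose was LEU4, the first enzyme of leucine synthesis, with 473, 480 and 638 CPM in Δrpl7a and 176, 181 and 266 CPM in the wild type (1.35 ± 0.18). Of 14 aromatic genes 2 were called higher, led by the transaminase ARO9 with 122, 143 and 163 CPM in Δrpl7a and 19.8, 19.0 and 34.6 CPM in the wild type (2.54 ± 0.28). LYS1, LEU4 and ARO9 were each higher in all Δrpl7a libraries than in any of the wild type.

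Of 24 genes of sulfate assimilation and methionine 8 were called higher and none lower (median 0.675). STR3, which makes homocysteine from cystathionine, had 48.0, 39.7 and 15.4 CPM in Δrpl7a and 3.77, 4.27 and 3.56 CPM in the wild type (log2 fold change 3.14 ± 0.53). MET2, homoserine acetyltransferase, had 81.9, 73.5 and 35.7 CPM in Δrpl7a and 10.5, 10.4 and 8.69 CPM in the wild type (2.69 ± 0.42). Unlike the arginine genes, both were lowest in replicate 3 of the Δrpl7a libraries. Both strains lack the sulfhydrylase gene MET17 of this pathway. Of 13 serine, glycine and threonine genes 1 was called, SER2, which fell, and 9 of the 13 had a log2 fold change below 0 (median -0.334). Of 145 genes that the study lists as bound by Gcn4 in chromatin immunoprecipitation, chosen on other libraries of the series, 37 were called higher and 5 lower, with a median of 0.41, and without replicate 3 of every strain 38 and 10. The leading genes of that list were SPG4 and DDR2, both stress-induced, ahead of RTC2 (4.75), a vacuolar membrane protein, and YGR067C (4.35).

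Genes for taking up and degrading nitrogen sources rose in part. Of 25 genes under nitrogen catabolite repression, the system that silences the use of poor nitrogen sources, 9 were called higher and 1 lower (median 0.905). Of 19 amino acid permeases 6 were called higher and none lower (median 0.666). PUT4, the proline permease, had 39.4, 36.6 and 5.32 CPM in Δrpl7a and 0, 1.20 and 1.14 CPM in the wild type, with the lowest level among Δrpl7a libraries in replicate 3. PUT1, proline oxidase, had 186, 175 and 49.2 CPM in Δrpl7a and 11.8, 12.3 and 11.7 CPM in the wild type (log2 fold change 3.52 ± 0.41). GAP1, the general amino acid permease, had 153, 115 and 21.6 CPM in Δrpl7a and 8, 9.40 and 10.3 CPM in the wild type (3.38 ± 0.53). No wild-type library reached the Δrpl7a range in these genes, and the distance was smallest for replicate 3.

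Purine synthesis genes were lower. Of 21 members 8 were called lower and none higher, with a median of -0.744 (6 called lower without replicate 3 of every strain). ADE4, the first enzyme of the pathway, had 47.1, 48.6 and 91.9 CPM in Δrpl7a and 222, 206 and 252 CPM in the wild type (log2 fold change -1.85 ± 0.23, edgeR adjusted p = 6.83e-06). IMD2, an IMP dehydrogenase of GTP synthesis, had 36.0, 30.0 and 21.6 CPM in Δrpl7a and 130, 114 and 103 CPM in the wild type (-1.99 ± 0.16). In ADE4 replicate 3 was the highest Δrpl7a library and in IMD2 the lowest, and neither gene overlapped between the strains.

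Among genes of the stress response, small heat shock genes and the list of other stress-induced genes rose in most members, and the larger chaperones and antioxidant genes in a minority. Of 8 small heat shock and disaggregase genes 7 were called higher (median log2 fold change 2.96), of 24 genes for the Hsp70, Hsp90 and Hsp110 classes 8 were higher and 2 lower (median 0.437), and of 54 other stress-induced genes 48 were higher and 1 lower (median 3.04). HSP26, a small heat shock protein, had 115, 111 and 81.6 CPM in Δrpl7a and 3.61, 2.73 and 4.56 CPM in the wild type (4.79 ± 0.56). HSP42, the other small chaperone, had 2734, 2852 and 917 CPM in Δrpl7a and 190, 200 and 129 CPM in the wild type (3.65 ± 0.47). HSP104, the disaggregase, had 4905, 4490 and 1972 CPM in Δrpl7a and 667, 716 and 381 CPM in the wild type (2.69 ± 0.41). All 3 were higher in every Δrpl7a library. SSA4, the stress-inducible Hsp70, had 1353, 1162 and 377 CPM in Δrpl7a and 47.5, 60.5 and 61.2 CPM in the wild type (4.09 ± 0.57). HSP82, the inducible Hsp90, had 4392, 3987 and 1755 CPM in Δrpl7a and 480, 485 and 350 CPM in the wild type (2.95 ± 0.37).

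The 2 chaperone genes called lower were SSB1 and SSB2, the Hsp70 genes whose products bind nascent chains at the ribosome, and both were chosen for naming after their values were seen. SSB2, at -1, lost its call with scaling by total counts and without Δrpl7a replicate 1 or wild-type replicate 3. SSB1 had 636, 868 and 961 CPM in Δrpl7a and 1736, 1824 and 2452 CPM in the wild type (log2 fold change -1.29 ± 0.24). The 1 other stress gene called lower was GPP1, a glycerol phosphatase gene, with 476, 552 and 584 CPM in Δrpl7a and 1036, 1218 and 1493 CPM in the wild type (-1.22 ± 0.25), also named after its values were seen. Among 31 antioxidant genes 8 were called higher and 1 lower, with a median of 0.241, so that this list moved as a whole much less. CTT1, the cytosolic catalase, had 356, 370 and 116 CPM in Δrpl7a and 18.2, 24.4 and 12.4 CPM in the wild type (3.94 ± 0.45). Other stress-induced genes together took 3.35%, 3.18% and 1.85% of all counts in Δrpl7a, against 0.494%, 0.541% and 0.476% in the wild type.

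The reserve carbohydrates trehalose and glycogen are made when growth slows. All 9 tested trehalose genes were called higher, synthesis and breakdown alike, with log2 fold changes of 1.44 (TPS3) to 4.17 (PGM2). The same 9 of 9 were counted without replicate 3 of every strain. PGM2, phosphoglucomutase, had 941, 870 and 289 CPM in Δrpl7a and 40.8, 46.6 and 29.8 CPM in the wild type (4.17 ± 0.54). TPS1, which makes trehalose-6-phosphate, had 1126, 1084 and 505 CPM in Δrpl7a and 215, 199 and 149 CPM in the wild type (2.27 ± 0.31). TSL1, a regulatory subunit of the same complex, had 1927, 1672 and 752 CPM in Δrpl7a and 110, 124 and 56.8 CPM in the wild type (3.90 ± 0.44). In all of them replicate 3 was the lowest library of each strain.

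Of 17 glycogen genes 11 were called higher and none lower, with a median of 1.72. GPH1, glycogen phosphorylase, had 736, 657 and 249 CPM in Δrpl7a and 15.4, 17.3 and 7.98 CPM in the wild type (log2 fold change 5.34 ± 0.73). GLC3, the branching enzyme, had 992, 870 and 315 CPM in Δrpl7a and 22.9, 26.3 and 15.7 CPM in the wild type (5.07 ± 0.60). GSY1, a glycogen synthase, had 1411, 1308 and 404 CPM in Δrpl7a and 75.2, 85.3 and 34.8 CPM in the wild type (4.00 ± 0.56). The enzymes of synthesis and of breakdown rose together here as well.

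Both strains were grown in the same glucose medium, and part of the genes that glucose represses rose in Δrpl7a. Of 16 genes for hexose transporters and their regulators 9 were called higher and none lower (median log2 fold change 1.63). The 9 include the regulators MIG2 (2.28) and MIG1 (1.95), named after their values were seen, so they are not a count of glucose-repressed transporters. The transporters that rose included those of high or intermediate affinity. HXT4 had 304, 253 and 116 CPM in Δrpl7a and 7.53, 8.54 and 8.40 CPM in the wild type (4.78 ± 0.58). HXT2 had 2059, 1770 and 854 CPM in Δrpl7a and 162, 148 and 294 CPM in the wild type (2.95 ± 0.38). HXT7 had 128, 111 and 55.1 CPM in Δrpl7a and 0.471, 1.71 and 1.85 CPM in the wild type (6.16 ± 0.47), but it is near-identical to HXT6, so the 2 genes cannot be counted apart with certainty. The low-affinity transporters HXT1 and HXT3, named after their values were seen, were not called with all libraries. HXT3 had 548, 441 and 362 CPM in Δrpl7a and 385, 339 and 420 CPM in the wild type, with overlapping ranges (0.24 ± 0.18). HXT1 had 144, 120 and 128 CPM in Δrpl7a and 62.0, 63.2 and 115 CPM in the wild type (0.71 ± 0.23, edgeR adjusted p = 0.0145), but was called without replicate 3 of every strain (1.05, adjusted p = 6.21e-09). MTH1, a corepressor of hexose transporter genes, had 144, 140 and 86.2 CPM in Δrpl7a and 11.0, 11.3 and 13.7 CPM in the wild type (3.36 ± 0.31).

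The glycolytic genes were split. Of 24 tested, 7 were called higher and 2 lower, with a median of -0.296, and 16 of the 24 had a log2 fold change below 0. HXK1 (given above) and GLK1, both sugar kinases, were among the largest rises of this list, and GLK1 had 1955, 1901 and 799 CPM in Δrpl7a and 141, 169 and 128 CPM in the wild type (log2 fold change 3.41 ± 0.37). HXK2, the main hexokinase in glucose, named after its values were seen, had 1199, 1273 and 885 CPM in Δrpl7a and 1063, 1096 and 1402 CPM in the wild type, with overlapping ranges (-0.09 ± 0.15, edgeR adjusted p = 0.646).

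Of 22 genes for the glyoxylate cycle, gluconeogenesis and acetate use 12 were called higher and none lower (median log2 fold change 1.58). The members not called included ICL1 (0.549), MLS1 (1.02, edgeR adjusted p = 0.0156) and FBP1 (1.1, adjusted p = 0.0642), named after their values were seen. ADR1 and CAT8 encode activators of genes for non-fermentable carbon sources. ADR1 had 613, 480 and 238 CPM in Δrpl7a and 39.2, 45.8 and 66.2 CPM in the wild type (3.13 ± 0.34). CAT8 had 204, 170 and 67.3 CPM in Δrpl7a and 13.2, 19.8 and 17.4 CPM in the wild type (3.13 ± 0.40). ALD4, the main mitochondrial aldehyde dehydrogenase, had 966, 921 and 347 CPM in Δrpl7a and 22.0, 23.6 and 36.9 CPM in the wild type (4.75 ± 0.40). All 3 were above the wild type in every Δrpl7a library.

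Genes of respiration rose by smaller factors, and as a list evenly over the replicates. Of 23 TCA cycle genes 12 were called higher and none lower (median log2 fold change 1.19), and of 44 genes for the respiratory chain and ATP synthase 22 were higher and none lower (median 0.975). The genes of succinate dehydrogenase, such as SDH1 and SDH2, stand in both lists and are part of both counts. The respiratory genes took 0.919%, 0.886% and 0.868% of all counts in Δrpl7a, against 0.377%, 0.383% and 0.385% in the wild type. CYT1, cytochrome c1, had 289, 286 and 264 CPM in Δrpl7a and 44.2, 45.5 and 52.3 CPM in the wild type (2.56 ± 0.21, edgeR adjusted p = 1.48e-07). SDH1, a subunit of succinate dehydrogenase, had 276, 244 and 140 CPM in Δrpl7a and 32.3, 34.5 and 38.2 CPM in the wild type (2.65 ± 0.31). HAP4, the regulatory subunit of the activator of respiratory genes, was chosen after its values were seen and had 433, 483 and 320 CPM in Δrpl7a and 121, 153 and 122 CPM in the wild type (1.64 ± 0.19). For each of them the lowest Δrpl7a library was above the highest wild-type library. Of 69 mitochondrial ribosomal protein genes 3 were called higher and none lower, with a median of 0.126.

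Several genes known to be expressed at low oxygen were measured, and they did not move together. CYC7, the low-oxygen form of cytochrome c, rose, with 93.0, 86.2 and 24.1 CPM in Δrpl7a and 1.73, 1.71 and 1.28 CPM in the wild type (log2 fold change 5.42 ± 0.60). COX5B, the low-oxygen form of a cytochrome c oxidase subunit, named after its values were seen, had 215, 172 and 108 CPM in Δrpl7a and 32.0, 37.1 and 17.7 CPM in the wild type (2.51 ± 0.32). AAC3, the ADP/ATP carrier made at low oxygen, fell, with 3.15, 2.31 and 5.56 CPM in Δrpl7a and 23.5, 22.0 and 15.5 CPM in the wild type (-2.42 ± 0.23). HEM13, an oxygen-requiring enzyme of haem synthesis whose gene is induced at low oxygen, had 48.6, 66.9 and 61.9 CPM in Δrpl7a and 168, 183 and 141 CPM in the wild type (-1.47 ± 0.24). ANB1 and TIR1, given above, were also among those that fell. Of 31 genes for TIR, DAN, PAU and other cell wall mannoproteins 2 were called higher and 6 lower (median -0.361). SPI1, a stress-induced wall protein, went up in this list, with 1372, 1391 and 529 CPM in Δrpl7a and 34.4, 35.7 and 16.5 CPM in the wild type (5.25 ± 0.55).

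Of 27 genes in the ergosterol list 7 were called lower and none higher (median log2 fold change -0.466). The 7 include HEM13, the haem synthesis gene given above, and HES1 (-2.44), an oxysterol-binding protein homolog. ERG11, lanosterol demethylase, had 132, 150 and 284 CPM in Δrpl7a and 558, 559 and 625 CPM in the wild type (-1.62 ± 0.32). Of 32 autophagy genes 16 were called higher and none lower (median 1.02). ATG8, which coats the growing autophagosome, was among them, with 86.9, 71.7 and 43.4 CPM in Δrpl7a and 25.4, 20.7 and 16.2 CPM in the wild type (1.69 ± 0.30). ATG39, a receptor for autophagy of the nuclear envelope, had 33.5, 23.7 and 13.1 CPM in Δrpl7a and 2.20, 1.54 and 0.855 CPM in the wild type (3.93 ± 0.53). Both were separated between the strains. Of the 32 proteasome genes none was called in either direction (median 0.195).

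Genes of the cell cycle were lower in part. Of 18 genes for G1 cyclins and regulators of Start 4 were called lower, of 20 mitotic and daughter-specific genes 6, and of 29 genes for DNA replication 3, with none called higher in these 3 lists. Their medians were -0.444 for the G1 genes, -0.709 for the mitotic genes and -0.524 for the replication genes. Without replicate 3 of every strain 9 were called lower in the mitotic list and 9 in the replication list. CLN1, a G1 cyclin, had 29.6, 28 and 41.6 CPM in Δrpl7a and 91.2, 95.0 and 103 CPM in the wild type (log2 fold change -1.54 ± 0.20). CLB2, the main mitotic cyclin, had 13.7, 10.9 and 14.3 CPM in Δrpl7a and 41.0, 40.2 and 40.7 CPM in the wild type (-1.64 ± 0.27). Neither cyclin overlapped between the strains. None of 11 histone genes was called (median -0.288), while without replicate 3 of every strain 2 were called lower (median -0.514).

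In a list of 32 known lifespan regulators 6 genes were called higher and 1 lower, with a median of -0.0936. PNC1, the nicotinamidase, had 2261, 2187 and 916 CPM in Δrpl7a and 230, 271 and 168 CPM in the wild type (log2 fold change 3.00 ± 0.36, edgeR adjusted p = 4.82e-06). SIR2, the histone deacetylase of silencing, had 21.1, 25.7 and 27.2 CPM in Δrpl7a and 58.4, 57.2 and 70.7 CPM in the wild type (-1.33 ± 0.15, edgeR adjusted p = 3.31e-06). PNC1 was thus higher and SIR2 lower in every Δrpl7a library.

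Iron and phosphate genes showed single large changes with medians near 0. Of 33 genes of the iron regulon 6 were called higher and 3 lower (median 0.0761), and of 18 phosphate genes 3 were higher and 1 lower (median 0.00223). Of 9 zinc genes 2 were called lower and none higher (median -0.488). ISU1, the scaffold of iron-sulfur cluster assembly, had 316, 301 and 251 CPM in Δrpl7a and 70.1, 65.5 and 75.3 CPM in the wild type (log2 fold change 2.04 ± 0.15). PHM8, a nucleotide phosphatase, had 90.2, 100 and 78.9 CPM in Δrpl7a and 5.33, 8.03 and 7.12 CPM in the wild type (3.71 ± 0.20, edgeR adjusted p = 2.45e-09). ISU1 and PHM8 differed little between the Δrpl7a replicates.

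Promoter motifs were counted in windows from 250 bases before to 50 bases after the start codon, on both strands, in the 5489 tested genes with such a window in RefSeq build R64. The stress element core AGGGG was present in 47.3% of the genes called higher (321 of 678), in 11.5% of those called lower (40 of 349) and in 21.7% of all genes (1190). The PAC element GATGAG ran the other way, at 13.3% of those called higher (90), 31.2% of those called lower (109) and 20% of all (1099). The Gcn4 site TGACTC was present in 11.1% of the genes called higher (75), 7.16% of those called lower (25) and 8.29% of all genes (455). The motifs share bases where they overlap, which occurred in 8 of the 215 windows with both AGGGG and GATGAG, in 2 of 113 with AGGGG and TGACTC, and in 9 of 91 with TGACTC and GATGAG. Genes with more AGGGG matches had higher fold changes, with medians on the log2 scale of -0.0559 for no match (4299 genes), 0.321 for 1 match (1032), 0.823 for 2 (130) and 1.53 for 3 or more (28). The share called higher was 8.3%, 24%, 40.8% and 71.4% in the same order. In the lists, GATGAG was in 138 of 151 biogenesis windows (91.4%), AGGGG in 29 of 54 other stress-induced genes (53.7%) and TGACTC in 6 of 10 arginine genes. HSP12 holds 2 copies of AGGGG in the stretch printed above, and PGM2, ARG7 and RIX7 hold 1 copy of their motif. A match in a window is a count of letters and does not show that a factor bound there.

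**Figure D5:**
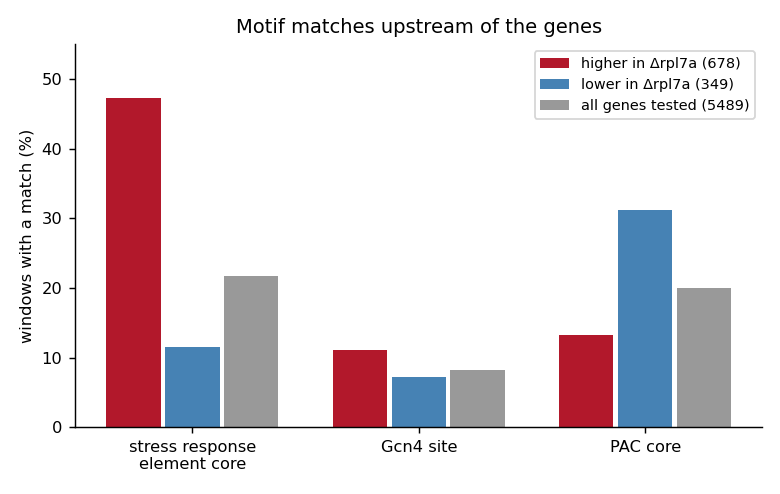
Percent of promoter windows that hold the stress element core, the Gcn4 site or the PAC element on either strand, as bars for genes called higher in Δrpl7a, genes called lower and all genes tested. The stress element core stands at 47.3%, 11.5% and 21.7% in these 3 sets, and the PAC element at 13.3%, 31.2% and 20%.

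The calls were spread over the genome. The share of genes called per chromosome ran between 15.4% on chromosome III and 24.1% on chromosome IX. Among the 197 tested genes that lie in the outermost 10 at a chromosome end, 16.2% were called higher and 6.6% lower, against 12.2% and 6.35% of the other genes. Across genes, which are not independent replicates, the log2 fold change had a Pearson r of -0.0677 and a Spearman rho of -0.0943 with coding length.

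To see which of these levels set Δrpl7a apart from the loss of other ribosomal proteins, it was compared with the mean of the other 4 deletion strains (12 libraries). In that comparison 653 genes (11.9%) were called, 475 (8.65%) higher and 178 (3.24%) lower in Δrpl7a. The number called lower was 363 without Δrpl7a replicate 3 and 297 without replicate 3 of every strain. The comparison uses the same Δrpl7a libraries as the comparison with the wild type, so the 2 are not independent. Of genes of moderate level the largest rises against the other strains were HSP12 (log2 difference 4.74), PHM7 (4.44), FMP45 (4.36), MPC3 (3.68) and XBP1 (3.56). XBP1, a repressor induced by stress and starvation, had 84.7, 75.8 and 38.3 CPM in Δrpl7a and 2.82, 3.42 and 1.42 CPM in the wild type. The largest falls were AAC3 (-2.45), TIR1 (-2.18), AIR1 (-2.14), SER2 (-2.11) and TRM44 (-2.05). A difference from the mean of the 4 strains need not hold against each of them. HSP12 had 423, 419 and 130 CPM in Δrpl9a, and TIR1 had 21.3, 16.6 and 35.9 CPM there. In both genes Δrpl9a was the deletion strain nearest to Δrpl7a. By list, all 9 trehalose genes, 11 of 17 glycogen genes and 46 of 54 other stress-induced genes were called higher than in the mean of the other strains, as were 5 of 10 arginine genes and 20 of 44 respiratory genes. ARG1, however, had 344, 368 and 214.5 CPM in Δrpl6a, within the range of the Δrpl7a libraries (194, 206 and 416 CPM). Its levels in Δrpl9a, Δrpl15b and Δrps27b were all below that range. In the same comparison 15 of 80 large-subunit genes, 14 of 56 small-subunit genes and 23 of 151 biogenesis factors were called lower. Called higher were 4 large-subunit genes, 1 small-subunit gene and 0 biogenesis factors. The medians were -0.792 for the large subunit and -0.879 for the small subunit. RPL6A, RPL9A, RPL15B and RPS27B are each missing from one of those strains, so their values in this comparison reflect those deletions. The study reports that the paralog of the deleted gene rose in its deletion strains except Δrpl15b, so values of those paralogs may reflect the deletions too. Some of the larger falls from the wild type were not called here. CLN1, at -1.54 against the wild type, differed by -0.09 from the other strains (edgeR adjusted p = 0.639), and FAR1, at -2.23, by -0.79 (adjusted p = 0.0226).

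Δrpl9a, the other strain that the study describes as long-lived, was also compared with Δrpl7a on its own. This set 3 libraries against 3, while the mean above rests on 12 libraries and includes Δrpl9a. The numbers of calls in these 2 comparisons are therefore not on an equal footing. No comparison with Δrpl6a, Δrpl15b or Δrps27b alone was made. Between the 2 strains 129 genes (2.35%) were called, 80 (1.46%) higher and 49 (0.893%) lower in Δrpl7a. With the replicate number as a block the count was 200. It also depended on single libraries, with 61 genes called without Δrpl7a replicate 1, 66 without replicate 2 and 397 without replicate 3, and with 262 without replicate 3 of every strain. Only 2 genes were called when these 2 strains were fitted alone, and with scaling by total counts 145 were called higher and 22 lower. The paralog RPL7B was 2.96 higher on the log2 scale in Δrpl7a than in Δrpl9a (edgeR adjusted p = 3.8e-08). By list, 0 of 9 trehalose genes, 2 of 17 glycogen genes, 9 of 54 other stress-induced genes, 3 of 44 respiratory genes and 3 of 10 arginine genes were called higher than in Δrpl9a. The stress and carbohydrate lists that stood above the mean of the other 4 strains were thus called against Δrpl9a in few of their genes or in none. These counts stand beside 1.46% of all genes called higher, and the lists still lay above Δrpl9a in their medians. The median log2 difference was 0.641 for trehalose, 0.595 for glycogen, 0.726 for other stress-induced, 0.513 for respiratory and 0.972 for arginine genes. RPL7A was present in Δrpl9a at 1318, 1422 and 1638 CPM.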

How the data were processed

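Poly(A) mRNA was sequenced with a directional protocol. The authors trimmed adapters and filtered reads with the FASTX toolkit, mapped them with segemehl to the yeast transcriptome, and deposited raw counts of uniquely mapped reads per gene. They used DESeq2 for their own tests. The submitters' processing notes name build sacCer3. The sources do not say whether counting used strand, so overlapping and antisense genes are uncertain. Samples were grouped by their labels.

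The 18 libraries of the wild type and 5 deletion strains (3 each) entered 1 fit in R 4.3.3 with edgeR 4.0.16 (filterByExpr, TMM, glmQLFit and glmQLFTest, two-sided, Benjamini-Hochberg over all genes). The SE was the log2 fold change divided by the square root of the F statistic. A call needed an adjusted p under 0.01 and more than 2-fold change. DESeq2 1.42.0, other scalings and filters, a replicate block and fits without each library were alternatives. The fit was tested on simulated data. Symbols matched 5741 of 5743 identifiers in a RefSeq R64 table, and the promoters came from RefSeq R64, which is the assembly of sacCer3.

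Same-numbered Δrpl7a and wild-type libraries deviated together (correlations 0.174, 0.285 and 0.341), each above the 0.1 taken as pairing, although Δrpl7a replicate 1 correlated more with wild-type replicate 2 (0.282). The deviations were taken from the mean of each strain, and replicate 3 stood apart in both strains. These values are therefore not independent, and they cannot tell a pairing of replicates 1 and 2 from the difference of replicate 3. Correlations of Δrpl7a with same-numbered libraries were 0.558, 0.465 and 0.654 for Δrpl9a and 0.161, 0.241 and 0.276 for Δrpl15b. Those for Δrpl6a and Δrps27b lay in between. The main fit had no replicate block, and the blocked fit was an alternative. With the block the calls went from 1027 to 1050 against the wild type and from 129 to 200 against Δrpl9a. No pair of libraries agreed within sampling noise. Counts limit precision for genes of a few CPM, and CPM are effective-library-size values.

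Named genes were the deleted gene, its paralog, its neighbours, GCN4 and marker genes, the 15 largest rises and falls among calls whose mean level over the 6 libraries was 4 or more in log2 CPM and whose strains did not overlap, up to 5 called members per list, any member of a list of up to 12, for a list with under 2 called members the 2 with the highest mean level, and the 5 largest differences from the other strains in each direction. CYT1, HXT2, RPL22A, SIR2 and the genes marked so in the text were named after their values were seen. Members and lists were chosen with earlier results of these data known, and the list of genes bound by Gcn4 was taken from the study. Results for some genes are not reported here.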

Additional observations from a re-analysis of the deposited data

How the results depend on the processing

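The comparison with the wild type gave 839 to 1293 calls when 1 library was left out (lowest without Δrpl7a replicate 1, highest without Δrpl7a replicate 3), 1042 with DESeq2, 1036 with no count filter and 943 when only these 6 libraries were fitted. With no fold minimum the counts were 2458 against the wild type, 2326 against the other 4 strains and 474 against Δrpl9a. With scaling by total counts 585 of 675 calls against the other 4 strains were higher, against 475 of 653 with TMM, and 145 of 167 against Δrpl9a, compared with 80 of 129. The Δrpl7a and Δrpl9a count was the least stable: 200 with the replicate block, 2 when only those 2 strains were fitted, 209 at an adjusted p below 0.05, 262 without replicate 3 of every strain, and 61 to 397 without single libraries. The log2 fold change of RPL7B was 0.99 with TMM without ribosomal protein and biogenesis genes, 0.87 without replicate 3 of every strain, and 0.92 to 1.11 without single libraries. The large-subunit median was -1.10 without replicate 3 of every strain and -0.58 with the trend on length and expression removed, and the small-subunit median was -0.764 with that trend removed. The cause was not tested. With the replicate block, GTT1, an antioxidant gene, came to 0.997, under the limit of 2-fold, and no other named gene lost its call. Of 216 called genes named or eligible for naming, 28 lost the call in at least 1 alternative, and none changed direction in the alternatives run. MIG1 and MIG2 were not among the genes checked in this way. Genes of a few CPM, such as DAN1 and CLB6, rest on few counts.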
